A study of Mus musculus with 6 samples.

Results

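Endothelial cells take their arterial, venous or sinusoidal identity under a small set of transcription factors, and 10 of these were followed here in mouse liver sinusoidal endothelial cells with and without Notch activation. The 10 were chosen by name from the 51165 rows of the deposited gene table: Gata4, Maf and Tfec as sinusoidal factors, Nr2f2 as the venous factor, Sox17 and Mecom as arterial factors, and Sox7, Sox18, Erg and Fli1 as factors of all endothelium. RNA sequencing covered 3 libraries from NICeCA mice (numbers 1, 2 and 3) and 3 from wild type mice (numbers 1, 3 and 4). All animals were C57BL/6, 7 to 8 weeks old, and both genotypes had received tamoxifen into the peritoneum, which in the NICeCA mice switches on Notch signalling. The NICeCA libraries are titled NICD, a common abbreviation for the Notch intracellular domain that the labels do not spell out. The labels name no promoter or Cre line that drives it, and do not say how the cells were purified.

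Notch receptors are cleaved when a neighbouring cell presents a ligand, and the freed intracellular domain joins the DNA-binding protein RBPJ to switch on targets such as the Hes and Hey repressors. In blood vessels Notch is the classical arterial signal, and the nuclear receptor encoded by Nr2f2 (COUP-TFII) is known to keep veins venous by holding Notch signalling down. Liver sinusoidal endothelium is a fenestrated, scavenging capillary bed. GATA4 is required in mice to establish it in place of continuous capillaries, while MAF and TFEC are counted among the factors enriched in it. The SoxF proteins (SOX7, SOX17, SOX18) and the ETS proteins ERG and FLI1 bind many endothelial enhancers.

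The libraries held 26254649 to 30034191 counted reads, and all 10 factors passed the filter on low counts with 19795 genes tested. The libraries carried endothelial transcripts: all 20 pan-endothelial markers and all 20 sinusoidal markers passed the filter in these libraries. Summed pan-endothelial markers were at 18648 to 26862 CPM (counts scaled by TMM-adjusted library size) in NICeCA and 26987 to 27849 CPM in wild type libraries, and summed sinusoidal markers at 19852 to 33703 CPM in NICeCA and 38722 to 39975 CPM in wild type. Markers of neutrophils and monocytes summed to 3434, 4946 and 17916 CPM in NICeCA libraries 1, 2 and 3, against 1054, 166 and 3237 CPM in wild type libraries 1, 3 and 4, and all 15 had positive fold changes. Macrophage marker sums overlapped between the genotypes, at 416 to 1995 CPM in NICeCA and 414 to 2699 CPM in wild type. NICeCA library 3 had the lowest sums of both endothelial lists and the highest neutrophil and monocyte sum. In bulk RNA, fewer cells of a type and less RNA per cell cannot be told apart. Nothing in the labels ties each library to a separate animal, and the p-values therefore rest on a spread among libraries that may be technical.

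None of the 10 factors passed the main test, edgeR's quasi-likelihood test with Benjamini-Hochberg adjustment over all tested genes at 0.05, a threshold that 0.0455% of tested genes (9 of 19795) passed, 0.0253% as higher and 0.0202% as lower in NICeCA. At an unadjusted p under 0.05 in the same fit, 5 of the 10 passed (Mecom, Sox18 and Sox17 with higher means in NICeCA, Maf and Sox7 with lower means), against 16.5% of all tested genes. DESeq2 on the same counts called 2 of the 10, Mecom as higher and Maf as lower, where it called 5.59% of all genes (3.7% as higher and 1.89% as lower). The values of the 2 genotypes did not overlap for 6 of the 10, with Sox17, Mecom and Sox18 above and Maf, Nr2f2 and Sox7 below the wild type range, where 23.4% of tested genes had groups that did not overlap (11.6% above and 11.8% below). The median log2 fold change of the 10 was -0.22, beside a median of -0.014 over all tested genes. The 10 were chosen with earlier results of these data known, so setting their shares beside those of all genes is a description and not a test.

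**Figure D1:**
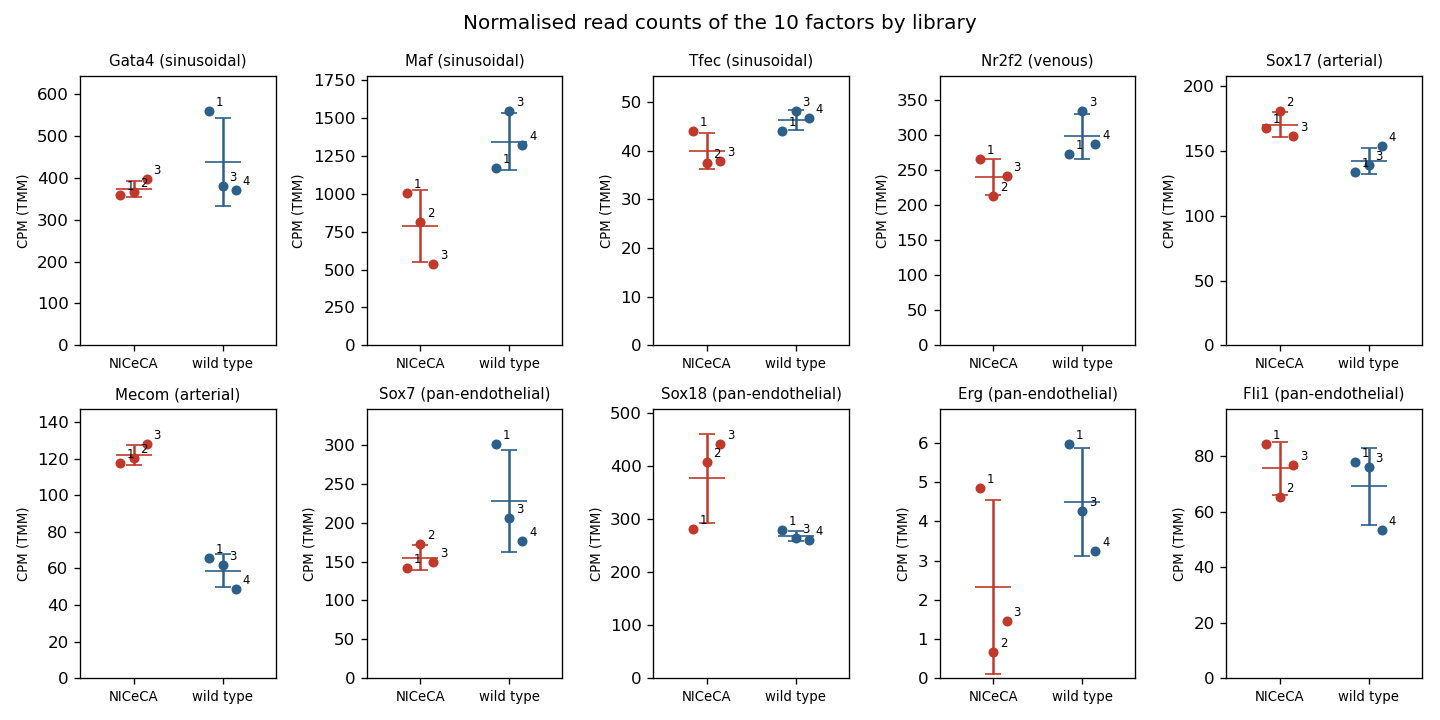
CPM of each of the 10 factors in every library on axes that start at 0, NICeCA libraries at the left and wild type libraries at the right of each panel, points labelled with the library number and bars giving the mean and SD. Mecom at 118 to 128 CPM in NICeCA lies above all wild type values, Maf at 535 to 1009 CPM lies below them, and Erg spans the widest relative range.

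Mecom, a zinc finger factor of the PRDM family that is expressed in arterial endothelium and in blood stem cells, had the largest shift among the higher factors. It stood at 118, 120.1 and 128 CPM in NICeCA libraries 1, 2 and 3, against 65.6, 62.2 and 48.8 CPM in wild type libraries 1, 3 and 4. The groups are well apart, and the NICeCA libraries lie close together. The means were 122 ± 5.34 CPM in NICeCA and 58.9 ± 8.91 CPM in wild type (SD, n = 3 each), a 2.07-fold difference. The log2 fold change was 1.05 ± 0.13 (SE), with an unadjusted p of 8.9e-05 that ranked 24 among 19795 genes and an adjusted p of 0.0734 in edgeR. DESeq2 gave an adjusted p of 6.77e-08 for the same counts, limma voom gave 0.0383, and edgeR without the filter on low counts gave 0.0249, so the call turned on both the tool and the filter. It held in DESeq2 whichever library was left out, with log2 fold changes of 0.93 to 1.14. On the log2 scale of its ratio to the mean of 20 pan-endothelial markers, Mecom stood 1.31 higher in NICeCA. Beside these values, 5 of 9 listed markers of blood progenitors passed the filter. Without Kit, which is also on the sinusoidal list, the other 4 summed to 101, 121 and 132 CPM in NICeCA libraries 1, 2 and 3, against 92.9, 75.2 and 57.1 CPM in wild type libraries 1, 3 and 4, a higher range in NICeCA. Most of this sum came from Cd34 (means of 61.8 CPM in NICeCA and 38.8 CPM in wild type) and Meis1 (52.5 and 32.3 CPM). Meis1 is also on a second list, that of endothelial factors, but unlike Kit it was kept in this sum. The sum without both Kit and Meis1 was not computed, so the higher range depends on which marker is left out. The Cd34 values overlapped between the genotypes. Myb averaged 1.87 CPM in NICeCA and 0.13 CPM in wild type. With Kit the sums ran the other way, at 240 to 386 CPM in NICeCA and 675 to 929 CPM in wild type, and the list had 3 positive and 2 negative fold changes with a median of 0.67. The part of such cells in the Mecom values was not tested. Neutrophil and monocyte markers summed to 3434 CPM in NICeCA library 1 and 17916 CPM in NICeCA library 3, where Mecom stood at 118 and 128 CPM. All NICeCA sums were above the wild type range of 166 to 3237 CPM, and the part of those cells in the Mecom values was not tested either.

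Mecom lies on the minus strand at chr3:29951296-30509783 and is read from a distant and a nearer start, which give a long form with a PR domain and a short form known as EVI1. The table has 1 row for the gene, so these forms were counted together. Their promoters, from 250 bases before to 50 bases after each start in RefSeq (GRCm38.p6, minus strand), are shown because the Mecom count adds up both starts. Capitals mark the letters of an ETS motif.
Mecom, long form start, chr3:30509710-30510009: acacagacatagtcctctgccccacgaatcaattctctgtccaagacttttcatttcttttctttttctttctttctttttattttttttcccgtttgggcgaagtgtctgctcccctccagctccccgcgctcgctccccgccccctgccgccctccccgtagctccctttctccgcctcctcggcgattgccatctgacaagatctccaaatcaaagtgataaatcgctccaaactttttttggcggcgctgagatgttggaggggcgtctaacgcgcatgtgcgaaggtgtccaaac
Mecom, short form start, chr3:30013155-30013454: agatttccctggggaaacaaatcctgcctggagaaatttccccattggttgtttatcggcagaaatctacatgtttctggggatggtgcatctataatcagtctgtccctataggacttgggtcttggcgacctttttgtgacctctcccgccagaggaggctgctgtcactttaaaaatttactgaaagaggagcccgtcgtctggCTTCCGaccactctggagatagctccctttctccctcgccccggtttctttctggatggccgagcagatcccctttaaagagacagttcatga
Both strands of each promoter were searched for 4 short motifs. These were TGGGAA for RBPJ, ACAAAG for SOX proteins, AGATAA for GATA proteins and CGGAAG for ETS proteins. The short form's promoter held 1 ETS match, read as CTTCCG on the printed strand, and the long form's held none of the 4. Of all 32851 promoters in the table, 25.6% held the RBPJ letters, 18.7% the SOX letters, 11.2% the GATA letters and 16.9% the ETS letters. RefSeq promoters were matched for 4 of the 10 factors (Mecom, Tfec, Nr2f2 and Erg), 7 promoters in all, and 1 of these 7 held the RBPJ letters, at an inner start of Erg. A match is a run of letters only, and its absence says nothing of whether the factor binds elsewhere.

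Sox17 (chr1:4490928-4497388, minus strand), the SoxF factor that marks arterial endothelium and acts with Notch in arterial specification in mice, had a smaller difference of the same sign. It stood at 168, 181 and 162 CPM in NICeCA, against 134, 139 and 154 CPM in wild type libraries. The lowest NICeCA value lay just above the highest wild type value. The means were 170.2 ± 9.70 CPM in NICeCA and 142 ± 10.1 CPM in wild type (SD, n = 3 each), with a log2 fold change of 0.26 ± 0.10 (SE) that did not pass (adjusted p = 0.283, edgeR; 0.254, DESeq2). The arterial markers around these factors had higher values in NICeCA for 14 of 19 tested, with a median log2 fold change of 0.87. edgeR called 1 of them higher, the Notch target Hey1, and DESeq2 called 10 higher and 2 lower. Their summed level overlapped between the genotypes, at 6097 to 8198 CPM in NICeCA and 4572 to 6200 CPM in wild type. Smooth muscle markers, which accompany arteries, were low in every library but did not overlap, at 52.7 to 63.0 CPM summed in NICeCA and 34.3 to 36.3 CPM in wild type, and their part in the arterial values was not tested.

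Nr2f2 (chr7:70351946-70366746, minus strand), the venous nuclear receptor, had lower values in NICeCA. It stood at 265, 213 and 241 CPM in NICeCA, against 273, 334 and 287 CPM in wild type. The ranges were separated by a narrow gap between NICeCA library 1 and wild type library 1. The means were 240 ± 26.0 CPM and 298 ± 31.9 CPM in NICeCA and wild type (SD, n = 3 each), and the log2 fold change of -0.31 ± 0.13 (SE) did not pass (adjusted p = 0.305, edgeR; 0.276, DESeq2). Set against the mean of the pan-endothelial markers in the same library, Nr2f2 differed by -0.059 on the log2 scale, and the groups overlapped. Of the 15 venous markers, a list that includes Nr2f2 itself, 13 had negative fold changes with a median of -0.45. edgeR called none of them and DESeq2 called 6 lower. Of the 20 pan-endothelial markers, 17 also had negative fold changes, with a median of -0.25. Nr2f1, the closest relative of Nr2f2, averaged 16.2 ± 2.37 CPM in NICeCA and 25.8 ± 4.10 CPM in wild type (SD, n = 3 each). Its log2 fold change was -0.67 ± 0.17 (SE; adjusted p = 0.18, edgeR; 0.0231, DESeq2).

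Maf, the large Maf bZIP factor enriched in sinusoidal endothelium and also made by macrophages and some T cells, had the largest shift among the lower factors with ample reads. It stood at 1009, 814 and 535 CPM in NICeCA, against 1169, 1547 and 1322 CPM in wild type. The groups did not overlap, but the NICeCA libraries were spread over almost as wide a range as the gap between the means. The means were 786 ± 238 CPM in NICeCA and 1346 ± 190 CPM in wild type (SD, n = 3 each), 1.71-fold lower in NICeCA. The log2 fold change was -0.78 ± 0.25 (SE; adjusted p = 0.222, edgeR). DESeq2 called it lower (adjusted p = 0.0419). Leaving out NICeCA library 3, the lowest, ended the DESeq2 call (log2 fold change -0.56, adjusted p = 0.0848), as did leaving out NICeCA library 2 (0.157), wild type library 3 (0.312) or wild type library 4 (0.11). Beside these values, the summed endothelial markers were lowest in the same NICeCA library 3. Macrophage markers summed to 1995, 1411 and 416 CPM in NICeCA libraries 1, 2 and 3, and to 414, 547 and 2699 CPM in wild type libraries 1, 3 and 4. The part of either cell type in the Maf values was not tested. Relative to the mean of the pan-endothelial markers, Maf was -0.56 on the log2 scale and the groups still did not overlap.

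Maf lies at chr8:115703253-115706894 on the minus strand, and an antisense row overlaps it (ENSMUSG00000086717.1, chr8:115705078-115707233, plus strand). That row held reads equal to 8.63% of the Maf count, and had a log2 fold change of -0.90 ± 0.43 (SE; adjusted p = 0.357, edgeR). Whether counting used the strand is not stated, so reads of the 2 rows cannot be told apart where they overlap. Overlapping rows also existed for Nr2f2, Sox17, Mecom and Fli1, and the fullest of them held 4.33%, 2.65%, 1.04% and 2.04% of that gene's count. No row overlapped Gata4, Tfec, Sox7, Sox18 or Erg.

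Gata4 (chr14:63198915-63271714, minus strand), the zinc finger factor needed for sinusoidal identity, had overlapping values in the 2 genotypes. It stood at 358, 365 and 396 CPM in NICeCA, against 559, 381 and 372 CPM in wild type. Wild type library 1 alone was high, and the other 5 libraries lay close together. The log2 fold change was -0.23 ± 0.18 (SE; adjusted p = 0.575, edgeR; 0.669, DESeq2), and without wild type library 1 it was -0.020 in edgeR and -0.012 in DESeq2. Tfec (chr6:16830837-16898462, minus strand), a bHLH factor of the MiT/TFE family, also overlapped, at 44.1, 37.5 and 38.0 CPM in NICeCA, against 44.1, 48.2 and 46.7 CPM in wild type. Its log2 fold change was -0.22 ± 0.11 (SE; adjusted p = 0.365, edgeR; 0.472, DESeq2). With the counts scaled to the pan-endothelial markers, both changed sign, to 0.042 for Gata4 and 0.044 for Tfec, while that scaling moved the median of all genes by 0.265. All 20 sinusoidal markers had negative fold changes, with a median of -0.63. edgeR called 1 of them lower, the Wnt ligand Wnt2, and DESeq2 called 7 lower. The pan-endothelial markers moved the same way, with 17 of 20 negative and a median of -0.25, and DESeq2 called 3 of them lower. The log2 fold changes of Gata4 and Tfec were smaller in size than the sinusoidal list's median and that of Maf larger. This is a comparison of sizes without a test.

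**Figure D2:**
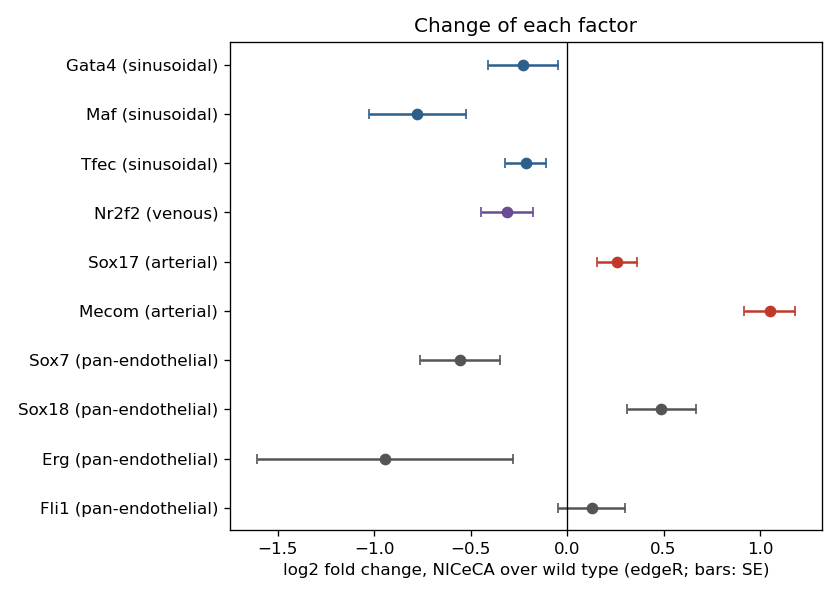
Log2 fold change of each of the 10 factors, NICeCA over wild type, with its standard error from edgeR; colours mark the sinusoidal, venous, arterial and pan-endothelial factors. Mecom at 1.05 and Maf at -0.78 lie furthest from 0 relative to their errors among the arterial and sinusoidal factors, and Erg at -0.94 has the widest error.

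The SoxF genes encode DNA-binding HMG box proteins that can stand in for each other in mouse endothelium, so their balance was examined as well as each level. Their coding sequences were 65.5% identical between Sox17 and Sox7, 67.1% between Sox18 and Sox7, and 66.5% between Sox17 and Sox18. The longest unbroken runs shared by a pair were 22, 20 and 29 bases in the same order of pairs. Whether reads were assigned to the wrong SoxF gene was not tested.

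Sox18 (chr2:181669837-181671640, minus strand), known for its part in lymphatic and vascular development, had higher values in NICeCA. It stood at 281, 407 and 441 CPM in NICeCA, against 279, 264 and 261 CPM in wild type. NICeCA library 1 lay just above the wild type range, and the other NICeCA libraries well above it. The means were 376 ± 84.1 CPM in NICeCA and 268 ± 9.63 CPM in wild type (SD, n = 3 each), with a log2 fold change of 0.49 ± 0.18 (SE; adjusted p = 0.250, edgeR; 0.148, DESeq2). Without NICeCA library 1 the log2 fold change was 0.67 and DESeq2 called it (adjusted p = 4.84e-06). The NICeCA libraries stood in the same order for Sox18 as for the summed neutrophil and monocyte markers, with library 3 highest. In wild type the order differed, as library 4 had the highest sum and the lowest Sox18 value, with Sox18 at 261 to 279 CPM in that genotype. The part of those cells in the Sox18 values was not tested.

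Sox7 (chr14:63943706-63950732, plus strand), expressed in endothelium from its first formation, had lower values in NICeCA. It stood at 142, 173 and 149.8 CPM in NICeCA, against 300.8, 206 and 176 CPM in wild type. The highest NICeCA value came close to the lowest wild type value, and wild type library 1 was far above all others. The log2 fold change was -0.55 ± 0.21 (SE; adjusted p = 0.260, edgeR; 0.168, DESeq2), and it was -0.31 without wild type library 1. Without wild type library 4, the lowest of its group, DESeq2 called Sox7 lower (adjusted p = 0.0414). Wild type library 1 was also the highest for Gata4.

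Because a share among the SoxF genes within a library does not depend on how libraries are scaled, the 3 genes were also compared as percentages of their summed RPKM, the count divided by gene length and library total. Sox18 made up 70.3%, 74.7% and 78.5% in NICeCA, against 59.8%, 65.1% and 66.5% in wild type. Sox7 made up 17.6%, 15.8% and 13.2% in NICeCA, against 32.0%, 25.1% and 22.3% in wild type. Sox17 made up 12.1%, 9.53% and 8.27% in NICeCA, against 8.24%, 9.85% and 11.2% in wild type. The Sox18 share was thus higher and the Sox7 share lower in every NICeCA library, while the Sox17 shares overlapped. The mean differences were 10.7 percentage points for Sox18 and -10.9 for Sox7, each with p = 0.1 in a two-sided exact permutation test, the smallest p that 3 against 3 libraries allow. Only the test of the Sox17 share was planned. The shares are parts of a whole, so the Sox18 and Sox7 differences are not separate results. The mean difference for Sox17 was 0.182 percentage points (p = 0.9, two-sided exact permutation test), and it changed sign without NICeCA library 1 (-0.877) or wild type library 1 (-0.586).

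**Figure D3:**
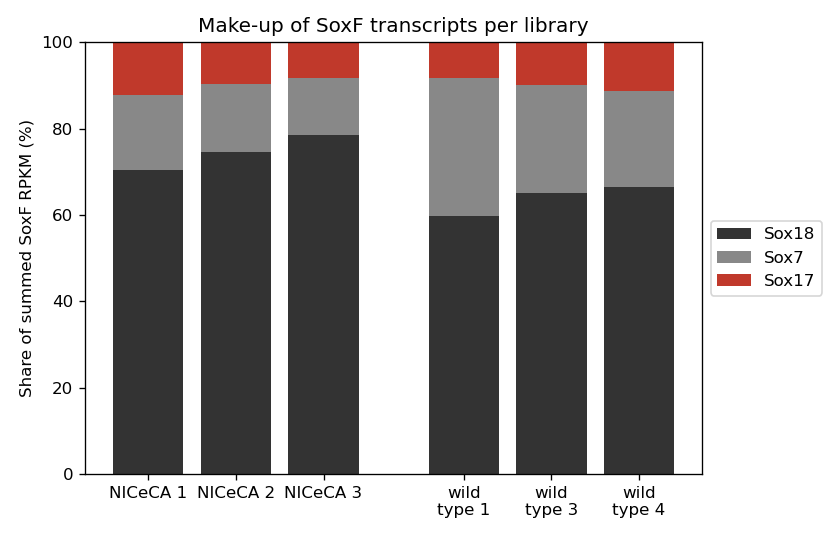
Share of Sox7, Sox17 and Sox18 in their summed RPKM in each library, as stacked bars from 0 to 100%, the NICeCA libraries left of the wild type libraries. The Sox18 share is 70.3% to 78.5% in NICeCA and 59.8% to 66.5% in wild type, and the Sox7 share is 13.2% to 17.6% in NICeCA and 22.3% to 32.0% in wild type.

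Erg and Fli1 are closely related ETS factors (their coding sequences were 73.1% identical, with a longest shared run of 22 bases) that bind many of the same endothelial enhancers. Erg (chr16:95359169-95586593, minus strand), a standard nuclear marker of endothelium, was the lowest of the 10, with 147, 20 and 44 counted reads in NICeCA, against 169, 111 and 90 reads in wild type. These are 4.85, 0.676 and 1.46 CPM in NICeCA and 5.97, 4.25 and 3.25 CPM in wild type, and 33.6% of tested genes had a lower mean. Whether counting lost Erg reads was not tested, and the Erg values and every share made from them carry that limit. NICeCA library 1 lay inside the wild type range and the other NICeCA libraries below it. Counting error alone gives 20 reads an exact Poisson 95% interval of 12.2 to 30.9 reads and 147 reads one of 124 to 173, which are intervals for single libraries and not for the genotype. The log2 fold change was -0.94 ± 0.66 (SE; adjusted p = 0.524, edgeR; 0.51, DESeq2). It was -2.07 without NICeCA library 1, which DESeq2 called (adjusted p = 0.00234) and edgeR did not (0.156), and -0.51 without NICeCA library 2.

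Fli1 (chr9:32422204-32543427, minus strand), which is also made by blood cells, stood at 84.3, 65.4 and 76.9 CPM in NICeCA, against 77.9, 76.2 and 53.2 CPM in wild type. The groups overlapped. The log2 fold change was 0.13 ± 0.17 (SE; adjusted p = 0.765, edgeR; 0.850, DESeq2), and its sign changed without wild type library 4 (-0.034). Fli1 made up 96.8%, 99.4% and 98.9% of the summed Erg and Fli1 RPKM in NICeCA, against 95.8%, 96.9% and 96.7% in wild type, and the shares overlapped (difference of 1.92 percentage points, p = 0.2, two-sided exact permutation test).

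Per length of transcript, the 10 factors spanned a wide range of levels. In NICeCA the highest were Sox18 at 239.6 ± 56.2 and Maf at 221 ± 64.4 RPKM, whose ranges overlapped, then Gata4 at 97.1 ± 7.09 RPKM (SD, n = 3 each). Sox7 at 48.8 ± 4.78 and Nr2f2 at 42.4 ± 4.74 RPKM overlapped, and the rest were apart from their neighbours: Sox17 at 31.0 ± 1.31, Fli1 at 18.4 ± 2.40, Mecom at 14.2 ± 0.885, Tfec at 8.94 ± 0.786 and Erg at 0.320 ± 0.302 RPKM. In wild type the order began with Maf at 359 ± 60.1 RPKM, above Sox18 at 160.5 ± 3.38 RPKM with ranges apart. Gata4 followed at 107 ± 23.0 RPKM, then Sox7 at 67.3 ± 17.7 and Nr2f2 at 49.6 ± 6.57 RPKM, which overlapped. Sox17 was at 24.5 ± 2.04, Fli1 at 15.8 ± 3.13, Tfec at 9.79 ± 0.694, Mecom at 6.44 ± 0.942 and Erg at 0.580 ± 0.166 RPKM. The order of means therefore differed at 2 places, with Sox18 and Maf exchanged and Mecom and Tfec exchanged, and Mecom was above Tfec in every NICeCA library and below it in every wild type library.

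Since the endothelial marker sums were lower in NICeCA, each factor was also set against the mean log2 CPM of 20 pan-endothelial markers in the same library, which was 9.32, 9.32 and 8.93 in NICeCA libraries 1, 2 and 3, against 9.42, 9.48 and 9.44 in wild type libraries 1, 3 and 4. On this ratio 4 factors had groups that did not overlap, and the share of all genes with groups apart on it was not computed. With counts scaled to the same markers, the median log2 fold change over all tested genes was 0.252, against -0.014 with TMM scaling. The ratios carry that general shift. Mecom (1.31), Sox18 (0.72) and Sox17 (0.51) were above and Maf (-0.56) was below the wild type range, each with p = 0.1 in a two-sided exact permutation test and 0.25 after Benjamini-Hochberg adjustment over the 10. Sox7 (-0.27, p = 0.5) and Nr2f2 (-0.059, p = 1.0), whose CPM values had not overlapped, overlapped on this ratio (same permutation test). Gata4 (0.050), Tfec (0.036), Fli1 (0.395) and Erg (-1.06) overlapped as well.

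**Figure D4:**
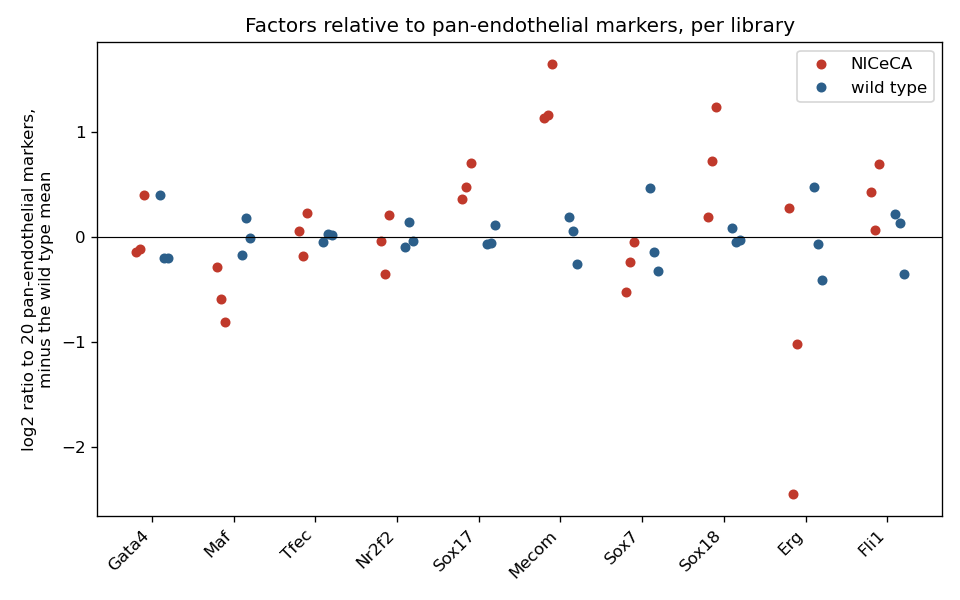
Log2 ratio of each factor to the mean of the 20 pan-endothelial markers in each library, shown minus the wild type mean of that factor, with NICeCA points left of wild type points for each factor. Mecom, Sox18 and Sox17 in NICeCA lie above the wild type range by mean differences of 1.31, 0.72 and 0.51, Maf lies below it by a mean difference of -0.56, and the other 6 overlap. Scaling counts to these markers raised the median log2 fold change of all tested genes to 0.252.

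The 82 other transcription factors listed with these 10, their family members and other factors with known endothelial roles, were examined to place the 10. Of these 75 were tested, with 41 positive and 34 negative fold changes and a median of 0.025, near that of all genes. edgeR called 1 higher, Hey1, and none lower, while DESeq2 called 4 higher (Hey1, Heyl, Foxc2 and Elf4) and 1 lower (Nr2f1). Hey1, a Notch-induced repressor, averaged 32.3 ± 7.41 CPM in NICeCA and 5.85 ± 0.588 CPM in wild type, with a log2 fold change of 2.46 ± 0.20 (SE; adjusted p = 0.0367, edgeR). Its relative Heyl averaged 11.3 ± 0.414 CPM in NICeCA and 5.46 ± 0.420 CPM in wild type (1.04 ± 0.15, adjusted p = 0.0941, edgeR), a difference of the same size as Mecom's. Rbpj, the DNA-binding partner of Notch, averaged 24.5 ± 2.70 CPM in NICeCA and 30.6 ± 3.22 CPM in wild type (-0.32 ± 0.13, adjusted p = 0.297, edgeR).

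By family, with the 10 counted in, all 5 listed PRDM genes were tested, with 4 positive fold changes and a median of 0.36; Mecom, called by DESeq2, was the only one called by either tool. Of 7 tested GATA family genes, a list that includes Gata4 and the FOG cofactors, 5 had negative fold changes and the median was -0.23. Both cofactors of GATA proteins had lower means in NICeCA without passing the test. Zfpm1 (FOG1) averaged 113 ± 34.1 CPM in NICeCA and 171 ± 21.1 CPM in wild type (-0.59 ± 0.24, adjusted p = 0.284, edgeR). Zfpm2 (FOG2) averaged 14.1 ± 2.26 CPM in NICeCA and 18.2 ± 1.47 CPM in wild type (-0.37 ± 0.15, adjusted p = 0.296, edgeR). Of 6 tested MAF genes, Maf among them, 4 had positive fold changes with a median of 0.18, and of 4 MiT/TFE genes, Tfec among them, 1 had a positive one with a median of -0.063. Gata3, better known from T cells and innate lymphocytes, averaged 1.85 ± 0.669 CPM in NICeCA and 0.506 ± 0.401 CPM in wild type (1.85 ± 0.61, adjusted p = 0.225, edgeR). Beside it, T and NK cell markers summed to 60.7 to 201 CPM in NICeCA and 13.7 to 95.2 CPM in wild type, and all 13 tested had positive fold changes; their part in the Gata3 values was not tested.

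The 16 tested ETS genes, Erg and Fli1 among them, were split evenly, 8 positive and 8 negative, with a median of 0.00083. Elf4, an ETS factor active in endothelial and immune cells, averaged 49.1 ± 7.00 CPM in NICeCA and 30.0 ± 7.02 CPM in wild type (0.71 ± 0.19, adjusted p = 0.194, edgeR; 0.0339, DESeq2). Ets1, a widely expressed endothelial ETS factor, averaged 991 ± 198 CPM in NICeCA and 1281 ± 112 CPM in wild type (-0.37 ± 0.19, adjusted p = 0.382, edgeR). Per length, Ets1 stood at 189 RPKM in NICeCA and 230.1 RPKM in wild type, and Elk3, a repressor of the same family chosen after its values were seen, at 127 RPKM in NICeCA and 153 RPKM in wild type. Both were above Fli1 and Erg in each genotype. Spi1 (PU.1), the myeloid ETS factor, was chosen after its values were seen. It stood at 70.9, 88.2 and 172 CPM in NICeCA, against 26.9, 7.82 and 68.1 CPM in wild type, in the same order of libraries within each genotype as the summed neutrophil and monocyte markers.

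**Figure D5:**
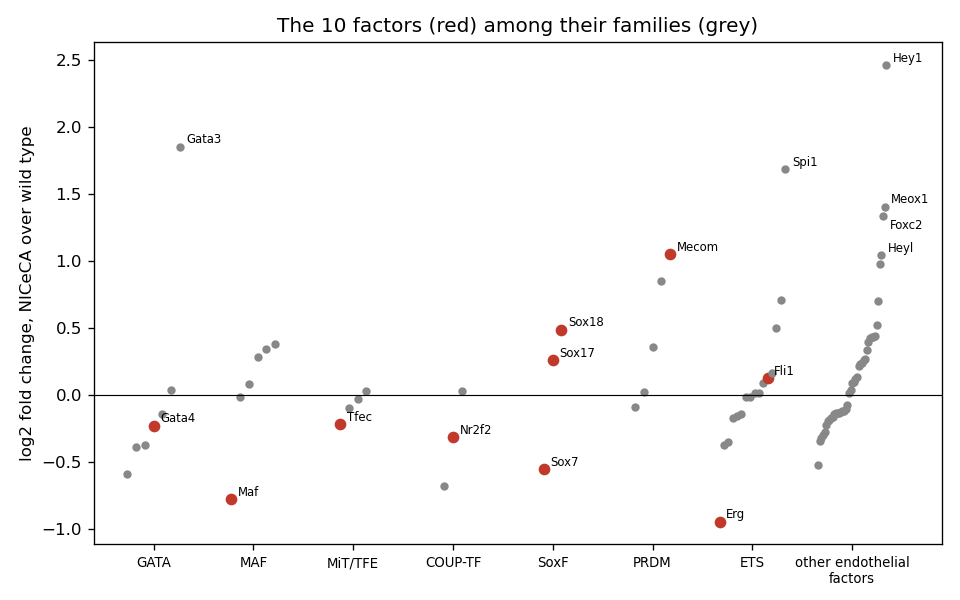
Log2 fold changes, NICeCA over wild type, of the tested members of each transcription factor family and of other endothelial factors, 1 point per gene, with the 10 factors in red and the others with a log2 fold change above 1 labelled. Hey1 at 2.46 is the highest labelled point, the ETS family is spread on both sides of 0, and Mecom at 1.05 and Maf at -0.78 stand in the PRDM and MAF columns.

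Of the remaining factors with the smallest p, those with higher means in NICeCA were Foxc2, a forkhead factor of lymphatic valves and arteries (1.34 ± 0.33), Meox1 (1.41 ± 0.50), the BMP target Id1 (0.53 ± 0.19) and the inhibitory SMAD Smad6 (0.44 ± 0.16). Those with lower means were the LIM-only factor Lmo2 (-0.30 ± 0.13), the BMP effector Smad1 (-0.17) and the mesenchymal forkhead factor Foxf1 (-0.52 ± 0.27), all as log2 fold changes ± SE. None of these 7 was called by edgeR, and DESeq2 called Foxc2 alone (adjusted p = 0.0162). Meox1 was at only 0.473 to 0.561 CPM in NICeCA libraries and 0.115 to 0.325 CPM in wild type libraries. The Meox1 fold change therefore rests on few reads. Foxc2 was also low, at 2.31 to 4.73 CPM in NICeCA and 1.37 to 1.69 CPM in wild type libraries.

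The transcription factor whose profile over the 6 libraries lay closest to each of the 10 was found by the root mean square difference of log2 CPM, after centring each gene on its own mean, among 84 other tested factors. Mecom was closest to Heyl (0.194) and then Meis1 (0.266), where the median over all factors was 0.607. Maf was closest to Zfpm1 (0.171, median 0.570) and Sox7 to Gata4 (0.197, median 0.424). Sox18 was closest to the Notch target Hes1 (0.112, median 0.394), with Klf6 almost as close (0.121). The Hes1 values themselves overlapped between the genotypes. Tfec and Nr2f2 were closest to each other (0.0857). Gata4 was closest to Prdm2 (0.142), Sox17 to Mef2d (0.136) and Fli1 to Nfatc1 (0.178). Erg had no close neighbour, the nearest being Nr2f1 at 0.794. These distances describe 6 libraries, all of which share the genotype contrast, and genes that vary little lie close to many others.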

How the data were processed

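Total RNA of isolated liver sinusoidal endothelial cells was sequenced as Illumina paired reads, per the labels' protocols. The authors deposited 1 table with raw read counts and RPKM per gene for 6 libraries. The deposited RPKM equal the count divided by gene length and library total, with a largest relative gap of 5.0e-06. Genome build, aligner, counter and strandedness: each is not given in the sources used here. Coordinates are the table's own, and all 10 overlap their RefSeq GRCm38.p6 genes (4 identical). Of 51165 rows, 17861 were 0 in every library.

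Counts were tested with edgeR 4.0.16 (R 4.3.3): genes kept by filterByExpr (minimum count 10), TMM scaling, and the quasi-likelihood test with Benjamini-Hochberg adjustment over 19795 genes at 0.05. SE was taken as the size of the log2 fold change over the root of the F statistic. The scale is CPM of TMM-scaled libraries. The biological coefficient of variation was 0.283. Alternatives were DESeq2 1.42.0, limma 3.58.1 voom with quality weights, RLE, total count and pan-endothelial scaling, no filter, a replicate block and each library left out. Shares and ratios were tested by exact permutation (scipy 1.17.1). The fitting steps were tested on simulated counts. Promoters are from RefSeq, and coding sequences were read from GENCODE transcripts of GRCm38. A planned comparison of protein sequences was not run. The sequences of the SoxF genes are not reported here.

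The 10 members and all lists were chosen with earlier results of these data known. Named beside them were the 8 other factors with the smallest p in each direction, and at most 4 genes of a marker list. The closest factor to each member was also named, and for Mecom and Sox18 the second closest too.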

Additional observations from a re-analysis of the deposited data

How the results depend on the processing

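Across 20 alternatives the log2 fold changes of the 10 factors kept their sign and side of the threshold in 181 of 200 cases, and 15 moved past the threshold. The 4 changes of sign were Gata4 (0.042) and Tfec (0.044) under pan-endothelial scaling, and Fli1 without wild type library 4 (-0.034 in edgeR, where leaving out each library gave -0.034 to 0.22, and -0.029 in DESeq2). None of the 10 was called by edgeR, with or without any library. DESeq2 called 2 (Maf and Mecom), voom 1 (Mecom, adjusted p = 0.0383) and edgeR without the filter 1 (Mecom, 0.0249), while DESeq2 with each library left out in turn, added after seeing the data, called 1 to 4 (values of 1, 2 and 4). Over all genes, where edgeR called 9, DESeq2 called 1107, voom 27, no filter 111, pan-endothelial scaling 4 and edgeR with a library left out 0 to 14; DESeq2 called 1388, 528 and 389 without NICeCA libraries 1, 2 and 3, and 1454, 604 and 1176 without wild type libraries 1, 3 and 4. Total count scaling called 8, with 6 higher and 2 lower, against 5 higher and 4 lower. Mecom's log2 fold change ran over 0.93 to 1.32, Maf's stayed below 0 and was -0.55 at its smallest.

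The numbers 1 and 3 occur in both genotypes, but deviations of same-numbered libraries correlated at -0.213 and -0.246 and the labels do not tie them. With the replicate block on these 4 libraries 0 genes were called (1659 at an unadjusted p under 0.05 in edgeR), and 0 without the block (2400). Mecom then stood at 0.94 ± 0.17 (adjusted p = 0.602, edgeR).

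With a library left out, the Sox17 share difference ran from -0.877 (without NICeCA library 1; -0.586 without wild type library 1) to 1.03 percentage points. Ratios to pan-endothelial markers that changed sign ran from -0.124 to 0.252 for Gata4 (-0.051 without wild type library 3 or 4), from -0.062 to 0.143 for Tfec and from -0.195 to 0.088 for Nr2f2 (0.011 without wild type library 3). Those that kept their sign but moved by over 1.5 times were Sox7 (-0.43 to -0.036, with -0.036 reached without wild type library 1), Erg (-1.73 without NICeCA library 1 to -0.369 without NICeCA library 2), Fli1 (0.221 without wild type library 4 to 0.560) and Sox18 (0.459 without NICeCA library 3 to 0.979). The causes were not tested. With 3 libraries a genotype, the exact tests cannot go below 0.1, and Erg rests on as few as 20 reads.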
